A study of Mus musculus with 6 samples.

Results

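Transcripts of potassium channel genes were compared between trametinib-treated and vehicle-treated mouse hearts. The group held every gene whose symbol begins with Kcn and whose mean over the 6 hearts was at least 10 normalized counts: 48 of the 95 Kcn genes listed, within a table of 21705 rows. Whole hearts came from wild-type FVB females aged 12 to 16 weeks. Trametinib, which blocks the MEK kinases upstream of ERK, was given to 3 animals at 3 mg/kg once daily for 14 days. Vehicle was given once daily over the same 14 days to 3 others, whose columns the deposited table heads as PBS control. Both arms were whole organs, so atria, ventricles, vessels, nerves and blood contributed to each library, and fewer cells of a type cannot be told apart from less RNA per cell.

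Potassium channels set the resting potential of heart muscle cells and carry the outward currents that end the action potential. Voltage-gated pore subunits open on depolarization, and accessory subunits bind them and alter their surface number and gating. Inward rectifiers and two-pore channels conduct near the resting potential, and calcium- or sodium-activated channels couple the membrane to the concentration of those ions. The mouse ventricle repolarizes fast, mainly through transient outward and slowly inactivating voltage-gated currents.

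The deposited values were estimated counts per gene that the authors had scaled to a common upper quartile, and are called normalized counts here. They summed to 21656431 to 22330993 per trametinib heart and 21773496 to 22040876 per vehicle heart, and the step between low values gave an estimated 23033141 to 24692481 reads for trametinib and 14304534 to 16047059 for vehicle. Depth therefore went with treatment. Heart muscle markers were high in every library: the 7 on the list summed to 1662764 to 1739823 in trametinib and 1703154 to 1747248 in vehicle hearts, with 2 members higher and 5 lower. The 6 fibroblast markers summed to 51296 to 54165 in trametinib and 75688 to 95513 in vehicle hearts (1 higher and 4 lower), and the 6 macrophage markers to 4719 to 6054 in trametinib and 6780 to 7499 in vehicle hearts (none higher and 3 lower). The 5 neutrophil markers summed to 1465 to 3114 in trametinib and 97.7 to 470.0 in vehicle hearts, all 5 higher, and the 4 erythroid markers measured to 54923 to 194059 in trametinib and 19814 to 27340 in vehicle hearts, with 3 higher. Calls of higher and lower use the test and threshold given in the next paragraph, where 21.6% of all genes were higher and 22.8% lower. The part of these markers in the results below was not tested.

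Of the 48 potassium channel genes, 9 rose with trametinib, 7 fell and 32 were not past the threshold. The test was limma on log2(value + 1) with Benjamini-Hochberg adjustment over 13581 genes and a threshold of 0.05. Over all genes tested, 44.5% passed, 21.6% higher and 22.8% lower, so the 33.3% of potassium channel genes that passed lay below the share of the whole table. The median log2 fold change was 0.22 for the group and -0.01 for all genes. The 3 values of one arm lay wholly above or below the 3 of the other for 21 of the 48, or 43.8%, against 56.5% of all genes. The 48 genes together summed to 36126, 35656 and 36977 normalized counts in the trametinib hearts, against 32968, 30651 and 31028 in the vehicle hearts, and the 10 with the highest values held between 78.6% and 80.5% of that sum in every heart. The count of members that fell was 2 without trametinib replicate 1 (18.3% of all genes then lower), 3 without trametinib replicate 3 (18.5%), 3 without vehicle replicate 2 (20.9%) and 3 without vehicle replicate 3 (19.0%). It was 5 without trametinib replicate 2 (19.3%) and 6 without vehicle replicate 1 (21.0%). Kcnip2 and Kcnk2 fell in each of these 6 tests.

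**Figure D1:**
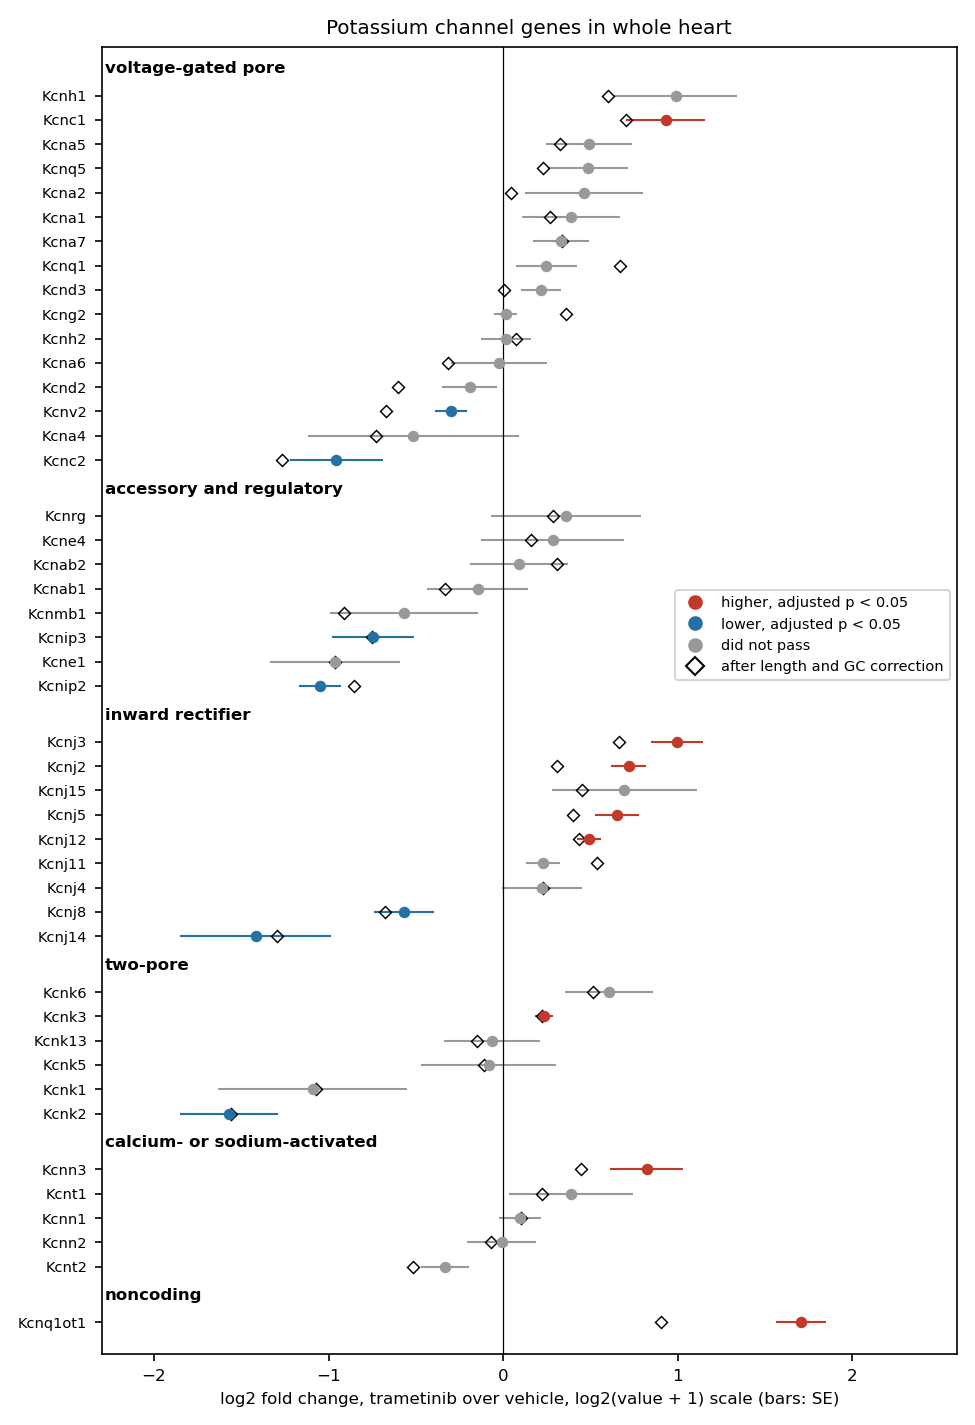
Log2 fold change (trametinib over vehicle, x axis) of potassium channel genes by channel type, with SE bars (n = 3 hearts an arm); red and blue points passed an adjusted p of 0.05, and open diamonds give the value after correction for transcript length and GC content. Of the 9 inward rectifiers 4 are red and 2 blue, and Kcnk2 (-1.57) and Kcnq1ot1 (1.71) mark the lowest and highest values.

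Among the inward rectifiers 4 of 9 rose and 2 fell, where 44.5% of all genes passed, with a median log2 fold change of 0.49. No difference between channel types was tested, and Kcnj5 and Kcnj14 lost their calls after the length and GC correction described below. Kcnj2 and Kcnj12 encode the pore subunits of the strong inward rectifier that holds ventricular cells at rest, and both rose. Kcnj2 had 2794, 3399 and 3569 normalized counts in the trametinib hearts, against 2099, 1838 and 1966 in the vehicle hearts (log2 fold change 0.72 ± 0.10, SE; adjusted p = 0.00123). Every trametinib heart lay above every vehicle heart, with trametinib replicate 1 the lowest of its arm. The value was smaller after the length and GC correction, at 0.31 (adjusted p = 0.0498), and 0.47 (adjusted p = 0.0111) with the longest transcript. Kcnj12 had 948, 939 and 960.4 normalized counts in the trametinib hearts, against 713, 641 and 672 in the vehicle hearts (log2 fold change 0.49 ± 0.067, SE; adjusted p = 0.00111). The arms did not overlap, and the trametinib hearts differed among themselves by less than the vehicle hearts did. Kcnj2 per Kcnj12, as a ratio of normalized counts, was 2.95, 3.62 and 3.72 in the trametinib hearts, against 2.95, 2.87 and 2.93 in the vehicle hearts. The ratio of trametinib replicate 1 thus lay next to the vehicle values. This ratio was not corrected for length. After the 2 corrections Kcnj12 stood at 0.43 (adjusted p = 0.00399) and 0.67 (adjusted p = 0.00108), above Kcnj2 in both. Kcnj4, another strong rectifier, had 71.3 to 102 normalized counts in trametinib and 61.1 to 98.6 in vehicle hearts (adjusted p = 0.465). Kcnj14, a further member of that subfamily and near the lower limit of the table, fell, with 7.52, 12.5 and 10.9 normalized counts in the trametinib hearts, against 16.8, 30.8 and 44.8 in the vehicle hearts (log2 fold change -1.42 ± 0.43, SE; adjusted p = 0.0312). In estimated reads, which are not adjusted for depth, Kcnj14 had 8, 14 and 12 in trametinib and 11, 20.0 and 33 in vehicle libraries. Its call was lost when any heart except vehicle replicate 1 was left out, with adjusted p up to 0.0991.

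Kcnj3 and Kcnj5 encode the pair of subunits that form the acetylcholine-activated rectifier of pacemaker and atrial cells. Kcnj3 rose to 837, 1016 and 929.7 normalized counts in the trametinib hearts, against 583, 411 and 414 in the vehicle hearts (log2 fold change 1.00 ± 0.15, SE; adjusted p = 0.00160). Kcnj5 rose as well, with 2265, 2185 and 2005 normalized counts in the trametinib hearts, against 1677, 1284 and 1186 in the vehicle hearts (log2 fold change 0.65 ± 0.13, SE; adjusted p = 0.00511). Neither gene had overlapping arms, and vehicle replicate 1 was the highest of its arm for both. The ratio of Kcnj3 to Kcnj5 was 0.369, 0.465 and 0.464 in the trametinib hearts, against 0.347, 0.321 and 0.349 in the vehicle hearts, without overlap. It is a description with no test and no correction for length. Over the same hearts the 7 atrial markers summed to 1011 to 4328 in trametinib and 7391 to 12636 in vehicle hearts. Of the 6 tested 6 were lower, where 22.8% of all genes were lower. The atrial light chain Myl4 had 1467, 163 and 122 normalized counts in the trametinib hearts, against 2327, 2724 and 1573 in the vehicle hearts, and Bmp10, the 7th marker, was listed at 0 in every trametinib heart and at most 7.70 in vehicle hearts. In trametinib replicate 1 Myl4 lay just below the vehicle range and the other atrial light chain, Myl7, at 1263, lay inside the vehicle range of 1122 to 1748. Other atrial markers of that heart lay below the vehicle range: Nppa at 744 (vehicle 3069 to 6284) and Sbk2 at 58.3 (118 to 190). So did Sln at 251 (339 to 995) and, narrowly, Stard10 at 545 (548 to 791). Without trametinib replicate 1 the log2 fold change was 1.07 (adjusted p = 0.00565) for Kcnj3 and 0.61 (adjusted p = 0.0227) for Kcnj5. The part of the atrial share in these results was not tested.

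**Figure D2:**
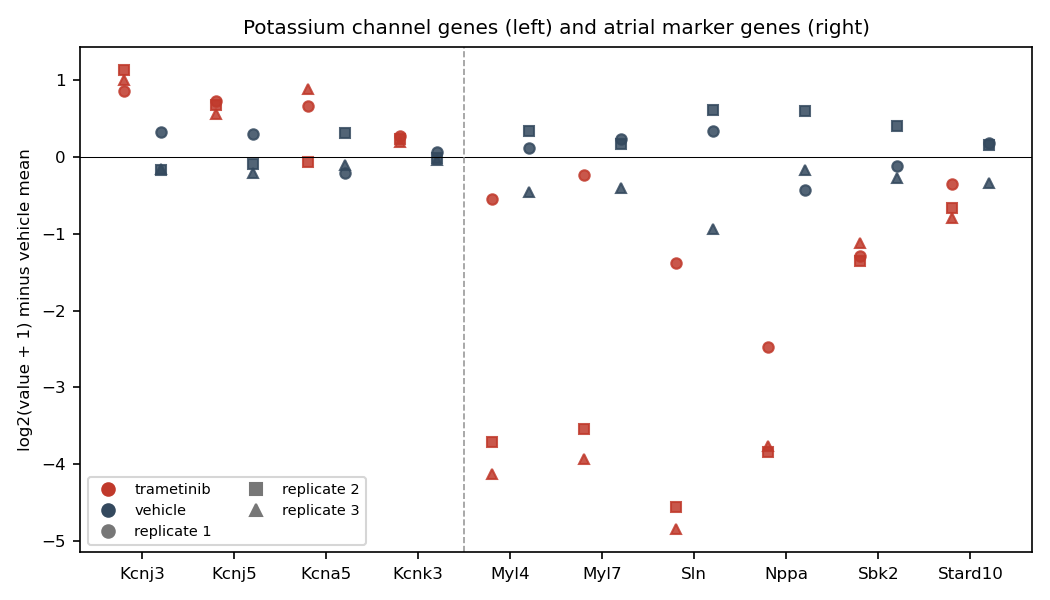
Log2(value + 1) of each heart minus the mean of the vehicle hearts for 4 potassium channel genes (left of the dashed line) and 6 atrial marker genes (right). Trametinib hearts are red, vehicle hearts dark, and the marker shape gives the replicate number. Kcnj3 and Kcnj5 sit above the vehicle hearts in all 3 trametinib hearts. Myl4 and Myl7 lie far below in replicates 2 and 3 and at or near the vehicle hearts in replicate 1. Nppa and Sbk2 lie well below the vehicle hearts in all 3 trametinib hearts.

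The channels that ATP closes are built from the pores Kcnj11 or Kcnj8 and the sulphonylurea receptors Abcc8 or Abcc9. Kcnj8, the pore of vascular muscle and pericytes, fell, with 479.5, 512 and 387 normalized counts in the trametinib hearts, against 861, 578 and 623 in the vehicle hearts (log2 fold change -0.57 ± 0.17, SE; adjusted p = 0.0293). The arms were apart, but vehicle replicate 1 stood well above the other vehicle hearts, and the call was lost without it (adjusted p = 0.0561), without trametinib replicate 1 (0.0614) or without trametinib replicate 3 (0.0907). Kcnj11, the pore of heart muscle, had 3819, 4178 and 3913 normalized counts in the trametinib hearts, against 3884, 2975 and 3377 in the vehicle hearts (log2 fold change 0.23 ± 0.097, SE; adjusted p = 0.0973), with vehicle replicate 1 inside the trametinib range. Kcnj8 per Kcnj11, uncorrected for length, was 0.126, 0.122 and 0.0989 in trametinib hearts, against 0.222, 0.194 and 0.184 in vehicle hearts, with no overlap. The receptor gene Abcc9 rose (log2 fold change 0.32 ± 0.065, SE; adjusted p = 0.00619), though not after the length and GC correction described below, at -0.10 (adjusted p = 0.359). Abcc8 had 1156 to 1196 normalized counts in trametinib and 1189.6 to 1307 in vehicle hearts (adjusted p = 0.267). Markers of smooth muscle and pericytes summed to 9929 to 14776 in trametinib and 9785 to 14654 in vehicle hearts. Of the 8, 3 were higher and none lower, where 21.6% of all genes were higher and 22.8% lower. Their median log2 fold change was -0.20. The 3 that rose were the smooth muscle gene Myh11 (1.34), the pericyte gene Rgs5 (0.68) and Notch3 (0.35). The other 5 had negative values short of the threshold, among them the smooth muscle gene Cnn1 (-1.55, the lowest) and the pericyte gene Pdgfrb (-0.31). The part of these markers in the change of Kcnj8 was not tested. Kcnj15, an epithelial rectifier, completed the type with 21.7 to 48.9 normalized counts in trametinib and 15.3 to 31.2 in vehicle hearts (adjusted p = 0.211).

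Among the genes of the transient outward current, the accessory subunit Kcnip2 fell, and the pore subunits did not pass in the uncorrected test. Kcnip2 encodes a calcium-binding protein that is required in mice for the fast transient outward current. It fell to 978, 1118 and 823 normalized counts in the trametinib hearts, against 2191, 1963 and 1849 in the vehicle hearts (log2 fold change -1.05 ± 0.12, SE; adjusted p = 0.000593), with a wide gap between arms. The pore gene Kcnd2 had 699, 923 and 846 normalized counts in the trametinib hearts, against 743, 1020.0 and 1075 in the vehicle hearts (log2 fold change -0.19 ± 0.16, SE; adjusted p = 0.364), and Kcnd3 had 647, 535 and 674 normalized counts in the trametinib hearts, against 581, 487 and 525 in the vehicle hearts (log2 fold change 0.22 ± 0.11, SE; adjusted p = 0.158). Both pores overlapped between arms. After the length and GC correction Kcnd2 passed as lower, at -0.60 (adjusted p = 0.0242), but not with the longest transcript, at -0.42 (adjusted p = 0.0837). Kcnip2 per summed Kcnd2 and Kcnd3, uncorrected for length, was 0.727, 0.767 and 0.541 in trametinib hearts, against 1.65, 1.30 and 1.16 in vehicle hearts. Kcnip2 and Kcnd2 lay closer together after the length and GC correction than in the uncorrected test. The Kcnip2 call held without each heart in turn (adjusted p 0.000967 to 0.0037) and after both length corrections, at -0.85 (adjusted p = 0.00364) and -0.98 (adjusted p = 0.00278). Kcnip3, a relative of Kcnip2 that also acts as a DNA-binding repressor, fell as well, with 41.4, 41.0 and 47.9 normalized counts in the trametinib hearts, against 55.0, 94.0 and 76.0 in the vehicle hearts (log2 fold change -0.74 ± 0.23, SE; adjusted p = 0.0352). That call, too, ended when any heart except vehicle replicate 1 was left out, with adjusted p up to 0.0981. Kcna4, the pore of the slow transient outward current, was the member nearest the lower limit, with 11.3, 9.81 and 3.62 normalized counts in the trametinib hearts, against 21.4, 9.24 and 6.78 in the vehicle hearts (adjusted p = 0.519).

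Upstream sequences are shown for Kcnip2, the protein-coding member with the smallest p among those that fell. They are also shown for Kcnj2, Kcnj3 and Kcnj5, which were among the 4 inward rectifiers that rose in the uncorrected test. The window of Kcnj12, which also rose, is not shown. It held none of the 5 motifs given below, with 56% G and C and 4 CG dinucleotides. The sequences come from RefSeq on build GRCm38.p6, not the authors' build, and are the 250 bases before the single start listed for each gene. RefSeq starts were at hand for 34 of the 48 members, and 27 of these had a single start. Capitals mark matches, on either strand, to any of 5 motifs searched: CCGGAAG for ETS factors, TGANTCA for AP-1, ACANNTGT for Iroquois factors, CACGTG for E-box factors and TATAAA for the TATA box.
Kcnip2 (chr19:45816064-45816313, minus strand): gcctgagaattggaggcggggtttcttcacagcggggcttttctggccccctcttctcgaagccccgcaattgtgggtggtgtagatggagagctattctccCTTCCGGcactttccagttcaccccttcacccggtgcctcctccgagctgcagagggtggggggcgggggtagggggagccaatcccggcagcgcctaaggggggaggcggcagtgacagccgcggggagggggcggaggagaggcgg
Kcnj2 (chr11:111065914-111066163, plus strand): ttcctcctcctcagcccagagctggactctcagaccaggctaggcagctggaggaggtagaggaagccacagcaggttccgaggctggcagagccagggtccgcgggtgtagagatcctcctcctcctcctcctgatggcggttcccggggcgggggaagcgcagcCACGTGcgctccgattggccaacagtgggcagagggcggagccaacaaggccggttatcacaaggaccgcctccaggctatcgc
Kcnj3 (chr2:55435720-55435969, plus strand): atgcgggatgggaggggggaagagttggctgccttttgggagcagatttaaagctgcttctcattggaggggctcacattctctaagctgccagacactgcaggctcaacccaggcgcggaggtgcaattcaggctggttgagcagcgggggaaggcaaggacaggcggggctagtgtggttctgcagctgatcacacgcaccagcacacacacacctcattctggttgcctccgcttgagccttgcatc
Kcnj5 (chr9:32344345-32344594, minus strand): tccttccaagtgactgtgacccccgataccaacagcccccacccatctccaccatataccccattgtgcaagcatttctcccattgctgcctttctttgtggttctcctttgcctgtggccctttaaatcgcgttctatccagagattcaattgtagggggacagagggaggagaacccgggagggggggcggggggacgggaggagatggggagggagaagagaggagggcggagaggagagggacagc
Kcnip2 held 1 ETS match, 148 bases before the start, and Kcnj2 held 1 E-box match, 84 bases before it. Kcnj3 and Kcnj5 held none of the 5 motifs in this window. An ETS match was present in 6.91% and an E-box match in 6.02% of 32851 windows of the same length, and in 1 and 2 of the 27 members with a single start. AP-1, Iroquois and TATA matches were present in 6.75%, 6.31% and 12.4% of all windows, and in 0, 1 and 0 of those 27 members. The Kcnip2 and Kcnj2 windows were the richest in G and C of the 4, at 66.8% and 65.6%, and held 15 and 14 CG dinucleotides, where Kcnj3 had 58.4% and 7 and Kcnj5 had 58.0% and 7.

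A slowly inactivating current of mouse ventricle runs through Kcna5. Kcna5 had 1145, 695 and 1335 normalized counts in the trametinib hearts, against 628, 902 and 671 in the vehicle hearts (log2 fold change 0.49 ± 0.25, SE; adjusted p = 0.143). Trametinib replicates 1 and 3 stood above all vehicle hearts and replicate 2 within their range, and without replicate 2 Kcna5 passed (adjusted p = 0.0133). Kcnv2, a silent subunit that forms channels only with other pores, fell slightly, with 616, 772 and 692 normalized counts in the trametinib hearts, against 832, 849 and 864 in the vehicle hearts (log2 fold change -0.30 ± 0.092, SE; adjusted p = 0.0328), a call lost when any heart except trametinib replicate 2 was left out (adjusted p up to 0.0994). Kcng2, another silent subunit, had 3326, 3236 and 3237 normalized counts in the trametinib hearts, against 3187, 3504 and 3019 in the vehicle hearts (log2 fold change 0.016 ± 0.066, SE; adjusted p = 0.863).

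Kcnh2 and Kcnq1 encode the pores of the rapid and slow delayed rectifiers, which carry most repolarizing current in large mammals and less in the mouse. Kcnh2 had 2653, 2055 and 2770.1 normalized counts in the trametinib hearts, against 2839, 2114 and 2437 in the vehicle hearts (log2 fold change 0.015 ± 0.14, SE; adjusted p = 0.939). Kcnq1 had 1483, 1206 and 1592 normalized counts in the trametinib hearts, against 919, 1283 and 1445 in the vehicle hearts (log2 fold change 0.25 ± 0.18, SE; adjusted p = 0.291). The arms overlapped for both, and neither passed. Kcne1, the small partner of Kcnq1, had 29.1, 20.5 and 35.3 normalized counts in the trametinib hearts, against 32.1, 72.4 and 70.6 in the vehicle hearts (log2 fold change -0.96 ± 0.37, SE; adjusted p = 0.0712). Vehicle replicate 1 lay within the trametinib range for Kcne1, and without that heart it passed (adjusted p = 0.0122). Kcne4, an inhibitory relative, had 219 in trametinib replicate 3, against 86.5 and 75.8 in the other 2 trametinib hearts and 67.3 to 117 in vehicle hearts, and was not past the threshold.

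Kcnq1ot1 is not a channel: it is an imprinted long noncoding RNA transcribed antisense from within Kcnq1, where it silences neighbouring genes on the paternal copy. It rose, with the largest fold change of the group in the uncorrected test: 462, 531 and 529 normalized counts in the trametinib hearts, against 176, 165 and 126 in the vehicle hearts (log2 fold change 1.71 ± 0.14, SE; adjusted p = 0.000282). Its ratio to Kcnq1, uncorrected for length, was 0.311, 0.440 and 0.332 in trametinib hearts, against 0.192, 0.129 and 0.0875 in vehicle hearts. The arms did not overlap in that ratio. The library kit marked strand, but whether counting used it is not given in the sources used here, so reads of the antisense RNA and of Kcnq1 may be mixed. Annotated genes, many of them noncoding, overlap further members, among them Kcnk2, Kcnk3, Kcnip3, Kcne1, Kcnd2, Kcnd3 and Kcnh2, and their reads may be shared in the same way. Its single annotated transcript spans 93092 nt, at the edge of the length range, where the correction curve rests on few genes. The corrected values of Kcnq1ot1 were 0.91 (adjusted p = 0.00255) and 0.63 (adjusted p = 0.0119), smaller in size than those of Kcnk2. For Kcnq1 they were 0.67 (adjusted p = 0.0210) and 0.34 (adjusted p = 0.150). The 2 genes thus lay closer together after the corrections than the ratio above shows. Without Kcnq1ot1, 8 of 47 members rose and 7 fell, where 44.5% of all genes passed, and the median log2 fold change remained 0.22.

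**Figure D3:**
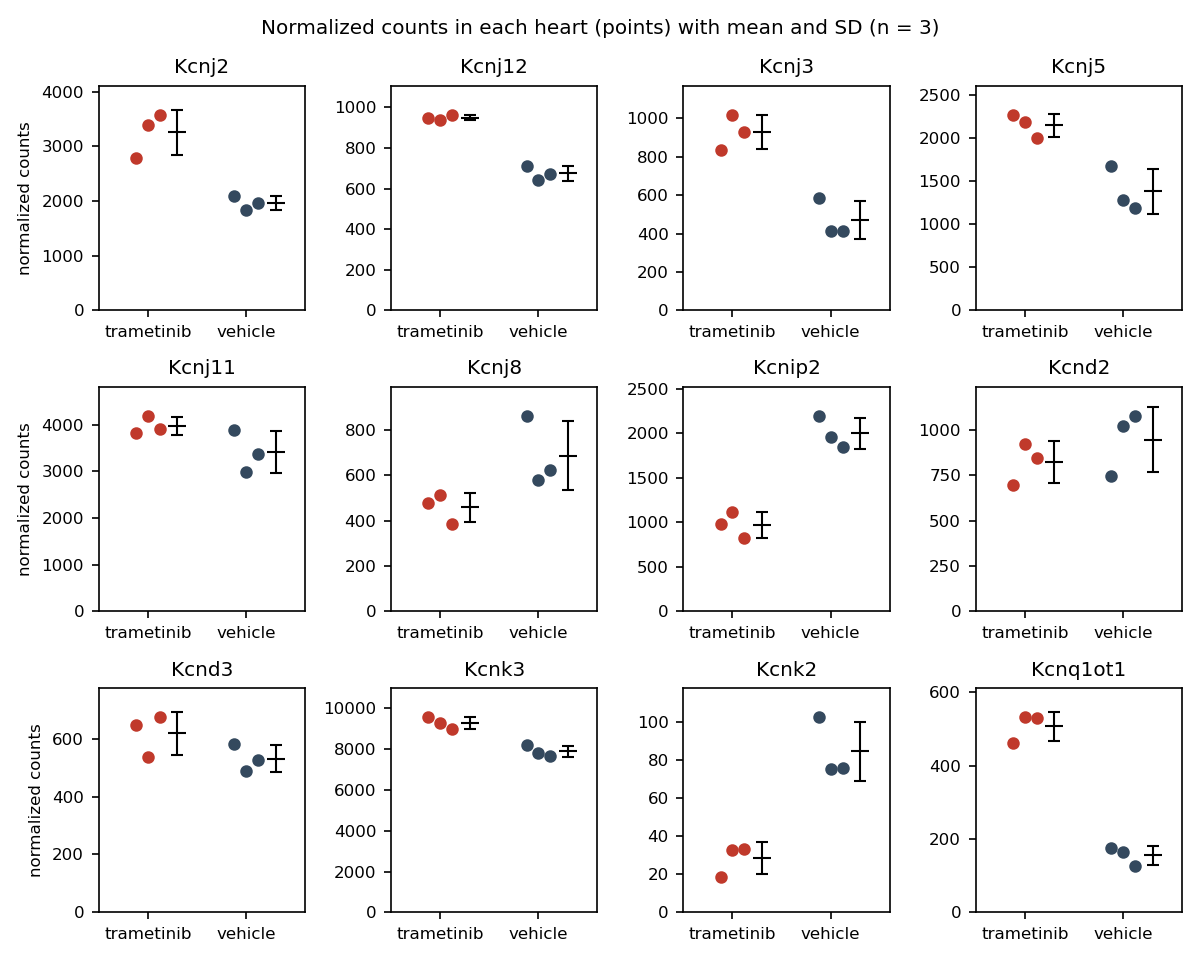
Normalized counts (y axis, from 0) of 12 potassium channel genes in each heart, with trametinib hearts in red on the left, vehicle hearts dark on the right, and the mean with its SD (n = 3) beside the points. The arms are apart for all but Kcnj11, Kcnd2 and Kcnd3; Kcnip2, Kcnj8 and Kcnk2 are lower with trametinib and the other 6 higher.

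Most of the remaining voltage-gated genes are better known from neurons and from vascular muscle, and values were mostly low. Kcnc1, a fast-gating pore, rose, with 152, 144 and 241 normalized counts in the trametinib hearts, against 79.5, 87.8 and 107 in the vehicle hearts (log2 fold change 0.93 ± 0.22, SE; adjusted p = 0.0127), and trametinib replicate 3 stood well above the others. Its relative Kcnc2 fell, with 24.4, 28.5 and 38.9 normalized counts in the trametinib hearts, against 45.9, 70.9 and 63.8 in the vehicle hearts (log2 fold change -0.95 ± 0.27, SE; adjusted p = 0.0231). That call was lost without trametinib replicate 1 (adjusted p = 0.0775) or 2 (0.0641) and without vehicle replicate 2 (0.0721) or 3 (0.0662). Kcnh1 did not pass (adjusted p = 0.0544) although its arms were apart, with 18.8 to 21.7 normalized counts in trametinib and 7.70 to 13.6 in vehicle hearts. Kcnq5, with 61.1 to 77.8 normalized counts in trametinib and 38.2 to 59.7 in vehicle hearts, Kcna7, with 305 to 357 normalized counts in trametinib and 205 to 310.4 in vehicle hearts, and the neuronal pores Kcna1, Kcna2 and Kcna6 did not pass either (adjusted p 0.123 to 0.955). Markers of neurons and Schwann cells summed to 420.5 to 526.5 in trametinib and 652.9 to 813.6 in vehicle hearts. Of the 6 tested, 4 were lower and none higher, where 22.8% of all genes were lower. Th and Snap25, which also mark neurons, were at or below 1 estimated read in every heart. Dbh, an enzyme of sympathetic neurons, had 39.8 to 63.9 normalized counts in trametinib and 88.7 to 146 in vehicle hearts. Their part in the change of Kcnc2 was not tested.

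Of the 6 two-pore genes 1 rose and 1 fell, where 44.5% of all genes passed. Kcnk3 encodes an acid-sensitive background channel. It rose slightly, with 9563, 9286 and 8993 normalized counts in the trametinib hearts, against 8209, 7797 and 7654 in the vehicle hearts (log2 fold change 0.23 ± 0.053, SE; adjusted p = 0.00946), and the arms were apart. Kcnk2 encodes a stretch- and lipid-sensitive background channel and had the largest decrease of the group. It fell to 18.8, 33.0 and 33.5 normalized counts in the trametinib hearts, against 102, 75.5 and 76.0 in the vehicle hearts (log2 fold change -1.57 ± 0.28, SE; adjusted p = 0.00341). The lowest vehicle heart was above the highest trametinib heart by a wide margin, and the call held without each heart in turn (adjusted p 0.00764 to 0.0129). In estimated reads Kcnk2 had 20.0, 37 and 37 in the deeper trametinib libraries, against 67, 49 and 56 in the vehicle libraries. After the length corrections the log2 fold change was -1.56 (adjusted p = 0.00520) and -1.57 (adjusted p = 0.00587). Kcnk6 had 136 to 208 normalized counts in trametinib and 78.0 to 142 in vehicle hearts (log2 fold change 0.61 ± 0.25, SE; adjusted p = 0.0868), and Kcnk1, Kcnk5 and Kcnk13, all below 25 in every heart, did not pass (adjusted p = 0.141, 0.88 and 0.866).

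Calcium-activated channels of small conductance are encoded by Kcnn1, Kcnn2 and Kcnn3. Kcnn3, found in endothelium as well as in heart muscle, rose, with 66.8, 82.9 and 58.8 normalized counts in the trametinib hearts, against 33.6, 41.6 and 40.7 in the vehicle hearts (log2 fold change 0.82 ± 0.21, SE; adjusted p = 0.0158). The call was lost without trametinib replicate 2 (adjusted p = 0.0609) and after the length and GC correction, at 0.45 (adjusted p = 0.169). Endothelial markers summed to 18451 to 19826 in trametinib and 14750 to 17175 in vehicle hearts. Of the 6, 2 were higher and 1 lower, where 44.5% of all genes passed, and their median log2 fold change was -0.037. Kdr had the largest rise, with 5932, 5965 and 4610 normalized counts in the trametinib hearts, against 4127, 1505 and 2996 in the vehicle hearts. Tie1, Tek and Emcn had negative values. The part of these markers in the change of Kcnn3 was not tested. Kcnn2, the form linked to atrial repolarization, had 201, 131 and 198 normalized counts in the trametinib hearts, against 205, 166 and 156 in the vehicle hearts (log2 fold change -0.0080 ± 0.20, SE; adjusted p = 0.978), and Kcnn1 had 259.6 to 269.8 normalized counts in trametinib and 218 to 287 in vehicle hearts (adjusted p = 0.547). The sodium-activated channel gene Kcnt2 had 124 to 151 normalized counts in trametinib and 162 to 201 in vehicle hearts, with the arms apart but an adjusted p = 0.0906, and Kcnt1 had 13.6 to 18.7 normalized counts in trametinib and 9.24 to 14.9 in vehicle hearts. The large-conductance pore Kcnma1 lay below the limit of 10, with 1.81 to 3.57 normalized counts in trametinib and 3.06 to 10.9 in vehicle hearts, and its smooth muscle partner Kcnmb1 had 9.81 to 28.2 normalized counts in trametinib and 24.5 to 33.9 in vehicle hearts (adjusted p = 0.314). The accessory genes not yet named, Kcnab1, Kcnab2 and the assembly inhibitor Kcnrg, did not pass (adjusted p 0.526 to 0.808). Of the 8 accessory or regulatory genes 0 rose and 2 fell, where 21.6% of all genes rose and 22.8% fell. Reads of Kcnrg may be shared with Trim13 and Dleu2, which overlap it.

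Levels were compared between genes only per kilobase of the longest annotated transcript. On that scale Kcnk3 was highest in both arms (2435 in trametinib and 2069 in vehicle hearts). Kcnj11 (1264 in trametinib and 1086 in vehicle hearts) and Kcng2 (1161 in trametinib and 1151 in vehicle hearts) came next, Kcnj11 ahead in trametinib hearts and Kcng2 ahead in vehicle hearts. Kcnip2 ranked 10 in trametinib hearts and 4 in vehicle hearts (312 in trametinib and 643 in vehicle hearts), and Kcnj2 ranked 4 in trametinib hearts and 7 in vehicle hearts (598 in trametinib and 361 in vehicle hearts). Kcnk2 stood far lower, at 7.96 in trametinib and 23.7 in vehicle hearts. At the limit of the group, Kcna4 (mean 10.4) and Kcnk1 (13.8) were just inside, and Kcnc4 (9.93) and Kcns3 (8.95) just outside. Of the 47 Kcn genes below the limit, 9 were listed at 0 in all 6 hearts and a further 15 had a mean under 1.

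Partners of these channels were taken from a list of 24 genes, of which 22 could be tested: 9 rose, 3 fell and 10 were not past the threshold (median log2 fold change 0.15; 44.5% of all genes passed). The 9 were 5 after the length and GC correction (18.6% of all genes then higher) and 4 with the longest transcript (15.8%). The 3 were 1 without trametinib replicate 1 (18.3% of all genes then lower), trametinib replicate 2 (19.3%) or vehicle replicate 1 (21.0%). The scaffold gene Dlg1, which anchors several of these pores, had 3178, 3193 and 3199.6 normalized counts in the trametinib hearts, against 2389.9, 2413 and 2374 in the vehicle hearts (log2 fold change 0.42 ± 0.047, SE; adjusted p = 0.000576). Corrected for mean length and GC content it stood at 0.22 (adjusted p = 0.0136), and with the longest transcript at 0.11 (adjusted p = 0.173). Amigo1, a membrane partner of voltage-gated pores, rose (log2 fold change 0.45 ± 0.083, SE; adjusted p = 0.00405). Akap9, the anchoring protein of the slow delayed rectifier, rose (log2 fold change 0.66 ± 0.12, SE; adjusted p = 0.00429), and so did the adaptor Ank2 (log2 fold change 0.35 ± 0.069, SE; adjusted p = 0.00506). With the longest-transcript correction Akap9 stood at 0.11 (adjusted p = 0.477) and Ank2 at -0.18 (adjusted p = 0.0435). Hcn4, the pacemaker channel, rose to 212, 164 and 192 normalized counts in the trametinib hearts, against 118, 94.0 and 106 in the vehicle hearts (log2 fold change 0.83 ± 0.15, SE; adjusted p = 0.00354), and its ventricular relative Hcn2 fell (log2 fold change -0.30 ± 0.096, SE; adjusted p = 0.0382). Fxyd1, a regulator of the sodium pump, fell to 5373, 5422 and 5017 normalized counts in the trametinib hearts, against 9376, 8906 and 8748 in the vehicle hearts (log2 fold change -0.77 ± 0.056, SE; adjusted p = 0.000229). After the length and GC correction Fxyd1 stood at 0.0089 (adjusted p = 0.928) and Hcn4 at 0.52 (adjusted p = 0.0190). Hcn2 passed there, at -0.41 (adjusted p = 0.0102), but not with the longest transcript, at -0.26 (adjusted p = 0.0610). Irx3, an Iroquois factor of the conduction system, fell (log2 fold change -0.72 ± 0.23, SE; adjusted p = 0.0394), a call lost after both corrections, at -0.79 (adjusted p = 0.0652) and -0.59 (adjusted p = 0.140). Irx5, which in mice represses Kcnd2 across the ventricular wall, had 76.9 to 136 normalized counts in trametinib and 121 to 189.6 in vehicle hearts (log2 fold change -0.56 ± 0.25, SE; adjusted p = 0.103).

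Fold change followed transcript length over the whole table, and the potassium channel genes shared that trend. Spearman's rho between log2 fold change and the longest transcript was 0.43 over the 48 members and 0.48 over 13512 genes, as descriptions across genes that share libraries. A lowess correction of each library on mean transcript length and GC content left 8 members higher and 8 lower, where 34.6% of all genes passed. Of the 9 that rose 5 remained. Kcnj5 moved to 0.40 (adjusted p = 0.0686), Kcnk3 to 0.22 (adjusted p = 0.0552), and Kcnn3 to the value above. Of the 7 that fell 6 remained, with Kcnj14 at -1.30 (adjusted p = 0.0508). Kcng2, Kcnj11 and Kcnq1 then passed as higher, at 0.36 (adjusted p = 0.0163), 0.54 (adjusted p = 0.00580) and 0.67 (adjusted p = 0.0210), and Kcnd2 and Kcnt2 as lower, the second at -0.52 (adjusted p = 0.0234). The mean and the longest annotated lengths were 858 and 3029 nt for Kcnq1, 1092 and 3142 nt for Kcnj11 and 1236 and 2813 nt for Kcng2. With the longest transcript in place of the mean 8 members were higher and 5 lower, where 31.1% of all genes passed. Then Kcnq1, Kcnj11, Kcng2 and Kcnd2 did not pass, Kcnj8 and Kcnip3 did not either, and Kcnj5 and Kcnk3 did, at 0.52 (adjusted p = 0.0263) and 0.25 (adjusted p = 0.0410). Kcna7 passed there alone among these 3 tests, at 0.58 (adjusted p = 0.0201). Whether the trend with length arose in the hearts or in the libraries was not tested, and cannot be told in this design, where depth went with treatment. Kcnip2, Kcnk2, Kcnj2, Kcnj3, Kcnj12, Kcnc1, Kcnc2, Kcnv2 and Kcnq1ot1 passed in the uncorrected test and both corrected ones, with the same direction in each.

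**Figure D4:**
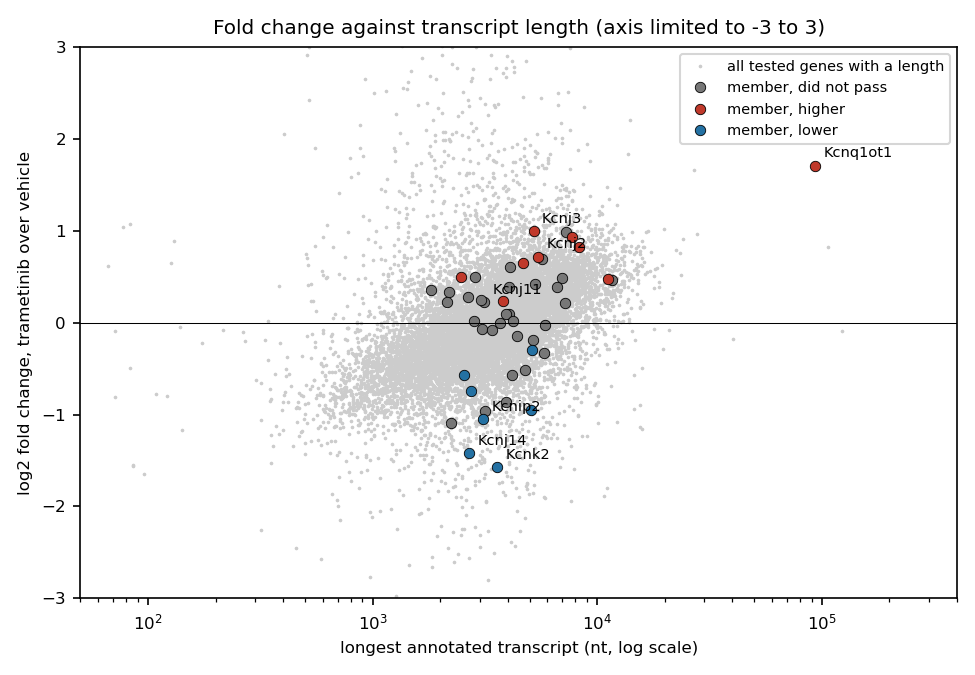
Log2 fold change (trametinib over vehicle, y axis limited to -3 to 3) against the longest annotated transcript (x axis, log scale) for all tested genes with a length (grey) and the 48 potassium channel genes (large points; red higher, blue lower). The grey cloud rises from left to right (rho 0.48); Kcnk2 and Kcnj14 lie below most of it and Kcnq1ot1 at the far right, where few genes are.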

How the data were processed

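Stranded messenger RNA libraries of 6 hearts shared 1 NextSeq run with single-end reads, per the labels' protocols. Either of 2 kits served for RNA extraction, and the sources used here do not say which heart had which, so its part in any difference was not tested. Each heart came from its own animal and was grouped by the treatment in its title. Picard 1.64, SAMtools, RSEM, DESeq2 and mm9 are named in the submitters' processing notes without role. No source used here gives the aligner or the annotation. The deposited table holds a signal: estimated counts per gene that the authors scaled by 1 factor a library, read from the values themselves (upper quartiles 997.851 to 999.464). Of values below 50 steps, 87.5% to 89.2% were within 0.05 of whole steps, so the planned count test was not run. A column under the control header whose library number fits no label (1 such column) was left out, so the vehicle arm holds only the 3 labelled hearts. Genes with a mean of 10 or more went into limma 3.58.1 (R 4.3.3) with a trended variance on log2(value + 1), a scale that understates changes of low genes. An exact permutation test of 3 against 3 cannot go below p = 0.1. Lengths and GC content came from GENCODE M21 transcripts, a later build's annotation matched by gene (99.5% of tested genes, all 48 members), and the lowess span was 0.3. The code was tested on simulated data.

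Members and lists were chosen with earlier results of these data known. Values in every heart are given for the subunits of the main cardiac currents and for the members past the threshold, at most 10 a direction by p. Partners past the threshold are named, up to 8 by smallest p. Abcc8, Irx3, Irx5, Hcn2 and the marker genes named singly, were chosen after their values were seen. Some genes that these rules name are not reported here. Alternatives covered pseudocounts, filters, scaling, length and GC content, voom on estimated reads, a replicate block and each heart left out. The longest-transcript correction was chosen after seeing the data.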

Additional observations from a re-analysis of the deposited data

How the results depend on the processing

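The 9 potassium channel genes that rose were 9 to 11 and the 7 that fell were 6 or 7 under pseudocounts of 0.5 and 5, filters at 0 and 30, median-of-ratios and quantile scaling, and voom, all 9 staying among those that rose. Over those settings 33.7% to 48.1% of all genes passed. With each heart left out in turn, 9 to 11 rose and 2 to 6 fell, and of the partner genes 7 to 9 rose and 1 to 2 fell. Over the same tests 15.8% to 20.6% of all genes rose and 18.3% to 21.0% fell. After the length and GC correction 5 partners rose, where 18.6% of all genes rose, and 4 with the longest transcript, where 15.8% rose. With the longest transcript 2059 of all genes fell, against 3098 in the uncorrected test. Several members short of the threshold changed sign in some setting, among them Kcnd3, Kcnh2 and Kcnn2. Kcnd3 stood at -0.11 with the longest transcript, against 0.22 in the uncorrected test. Kcnh2 stood at -0.061 with quantile scaling and -0.024 with the longest transcript, and between -0.090 and 0.15 with 1 heart left out. Kcnn2 stood at 0.012 with median-of-ratios and 0.063 with quantile scaling, and between -0.11 and 0.19 with 1 heart left out. The cause was not tested.

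With the replicate number as a block 9 members rose and 6 fell, Kcnip3 being lost (adjusted p = 0.0534), and over all genes 2885 rose and 2877 fell. Deviations of same-numbered hearts correlated at 0.24, 0.02 and 0.50, so the numbers were not taken to pair the animals, and not every heart correlated best with its own number. Vehicle libraries rest on fewer reads, so their low values are the less precise ones.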
